A study of Homo sapiens with 4 samples.

Results

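The circles described here are the 1209 circular RNAs whose level was at least 4-fold higher in HNRNPL knockdown than in control libraries of MDA-MB-468, an established human basal breast cancer cell line. They were 12% of the 10080 circles whose counts summed to 20 or more, which are called tested circles below, and the table lists 211599 circles in all. A circle was a member when both knockdown values lay above both control values and the knockdown mean was at least 4 times the control mean, in counts per 100000 of a library's total. The measured contrast therefore chose the members, and their higher level is a description with no test. The mirrored rule, at least 4-fold lower with no overlap, took 538 tested circles, or 5.34%.

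All 4 libraries came from 1 radiation-resistant derivative of the line, which had received 50 Gy of radiation in total. The 2 control libraries carried a control short hairpin RNA and a genotype labelled WT. The other 2 carried a stable hairpin against HNRNPL, and the labels name 1 such hairpin, shHNRNPL-1. Control and knockdown cells thus shared the radiation history, and a difference between hairpins or clones cannot be told apart from the knockdown. The labels call the 2 replicates of each group biological.

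A circular RNA forms when the spliceosome joins the end of an exon back to the start of the same or an earlier exon, so that the RNA has no free ends. One gene can give many circles, which differ in the exons they hold and often share 1 of their 2 ends. HNRNPL is a nuclear protein that binds CA-rich RNA and promotes or represses exons of many transcripts, and it has been linked to the formation of circles. Circles are stable in cells, so that their level reflects past as well as present splicing.

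The controls were the deeper libraries, with 472428 counts in replicate 1 and 556578 in replicate 2, while the knockdown libraries held 282737 and 390547. Where a circle had 0 counts its level could still be as high as 3 counts, or 0.635 and 0.539 per 100000 in the controls and 1.06 and 0.768 in the knockdown libraries. The counts come from reads amplified without molecular identifiers, so every interval below covers counting error only. Control replicate 1 stood apart in content, with 70.9% of its counts in exon circles and 19.7% in intron circles, against 84.9% to 85.7% and 9.93% to 10.6% in the other libraries. Values without it are given for the main classes and lists whose share it moved most. EGFR, EPCAM, CDH1 and MET, markers of this epithelial line, all gave circles, and PTPRC, PECAM1, COL1A1, COL1A2 and PDGFRB, markers of leukocytes, endothelium and fibroblasts, gave 0 circles. No circle named HNRNPL, so the target itself was not analysed here, and none of these marker genes hosted a member.

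The hosts with the most members were DNAH14, XPO1 and SENP6. DNAH14 encodes an axonemal dynein heavy chain, XPO1 encodes exportin 1, which carries proteins with a nuclear export signal out of the nucleus, and SENP6 encodes a protease that trims SUMO chains. The promoter windows of these 3 genes are printed because their circles were higher together in numbers that no other host reached. Each runs from 250 bases before to 50 bases after the start of the gene on the transcribed strand, from RefSeq on GRCh38.p14, with CG dinucleotides in capitals. The windows lie at chr1:224929404-224929703 on the plus strand for DNAH14, chr2:61538307-61538606 on the minus strand for XPO1 and chr6:75601630-75601929 on the plus strand for SENP6.
DNAH14: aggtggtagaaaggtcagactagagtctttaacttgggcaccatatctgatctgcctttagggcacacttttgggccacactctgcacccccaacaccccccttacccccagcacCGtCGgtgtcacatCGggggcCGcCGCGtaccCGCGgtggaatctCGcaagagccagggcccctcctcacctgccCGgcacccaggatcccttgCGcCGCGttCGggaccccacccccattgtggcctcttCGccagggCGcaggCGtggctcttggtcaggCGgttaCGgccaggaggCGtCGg
XPO1: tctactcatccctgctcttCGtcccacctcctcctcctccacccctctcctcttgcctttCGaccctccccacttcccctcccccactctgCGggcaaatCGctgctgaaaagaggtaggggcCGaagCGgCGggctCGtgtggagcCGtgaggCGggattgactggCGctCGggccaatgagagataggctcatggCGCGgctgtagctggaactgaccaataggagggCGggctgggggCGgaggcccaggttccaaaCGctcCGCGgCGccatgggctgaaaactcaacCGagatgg
SENP6: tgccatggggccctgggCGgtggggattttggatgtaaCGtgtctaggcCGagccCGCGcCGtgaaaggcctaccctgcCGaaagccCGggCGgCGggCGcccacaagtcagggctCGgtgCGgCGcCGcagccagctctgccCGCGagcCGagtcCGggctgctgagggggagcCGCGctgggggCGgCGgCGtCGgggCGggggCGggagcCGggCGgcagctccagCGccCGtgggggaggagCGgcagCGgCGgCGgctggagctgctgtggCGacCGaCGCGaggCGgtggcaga
These windows held 21, 21 and 40 CG dinucleotides, with a GC content of 65.0%, 64.3% and 77.0%. A window was found for 416 of the 512 genes that hosted a member, with a median GC content of 66.3% and 28 CG dinucleotides. The 1507 windows of other genes with tested circles had nearly the same medians, 65.3% and 28, while the 27305 windows of the whole table had 58.3% and 14. The letters CACACACA, a run of the CA-rich kind that HNRNPL binds in RNA, were searched on both strands. Most of each window lies before the gene start, so this search does not measure binding of HNRNPL to RNA. The run was in 6 of 416 member hosts' windows (1.44%), 40 of 1507 windows of the other tested hosts (2.65%) and 3.08% of all windows. TATAAA, the core of the TATA box, was in 2.88%, 6.70% and 12% in the same order. Of members whose host had a window, 1 of 891 circles overlapped it, against 90 of 5907 other tested circles.

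Members made up a small part of the control libraries and a large part of the knockdown libraries. They held 0.928% (95% Clopper-Pearson interval 0.901% to 0.956%) and 3.07% (3.02% to 3.11%) of the counts of control replicates 1 and 2. In knockdown replicates 1 and 2 they held 17.1% (16.9% to 17.2%) and 17.9% (17.7% to 18%). This gave a control mean of 2.00 ± 1.51% (SD, n = 2) and a knockdown mean of 17.5 ± 0.552% (SD, n = 2). The knockdown libraries were close to each other, while control replicate 2 lay well above control replicate 1. Without ARHGAP5, DNAH14, SENP6 and XPO1, the remaining 1097 members held 0.659% and 1.88% of the control and 10.5% and 11.4% of the knockdown libraries.

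The typical member was barely seen in control cells. The median level per member was 0.212 and 0.719 per 100000 in control replicates 1 and 2, both near or below the floor of 3 counts, and 4.95 and 5.38 in the knockdown replicates. The medians of the 8871 other tested circles were 2.12 and 2.87 in the controls and 2.12 and 2.05 in the knockdown libraries. Members at 0 counts numbered 378 in control replicate 1, 113 in control replicate 2 and 0 in either knockdown library. Over both controls together, 69 members had 0 counts, 288 had 1 to 3, 477 had 4 to 9 and 375 had 10 or more. The condition that groups do not overlap removed none of the circles that were 4-fold higher by means, which also numbered 1209 (12%), whereas 888 (8.81%) were 4-fold lower by means. By the no-overlap condition alone, with any fold, 2749 tested circles (27.3%) were higher and 2644 (26.2%) lower, so that the 2 directions were balanced in number but not in size.

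**Figure D1:**
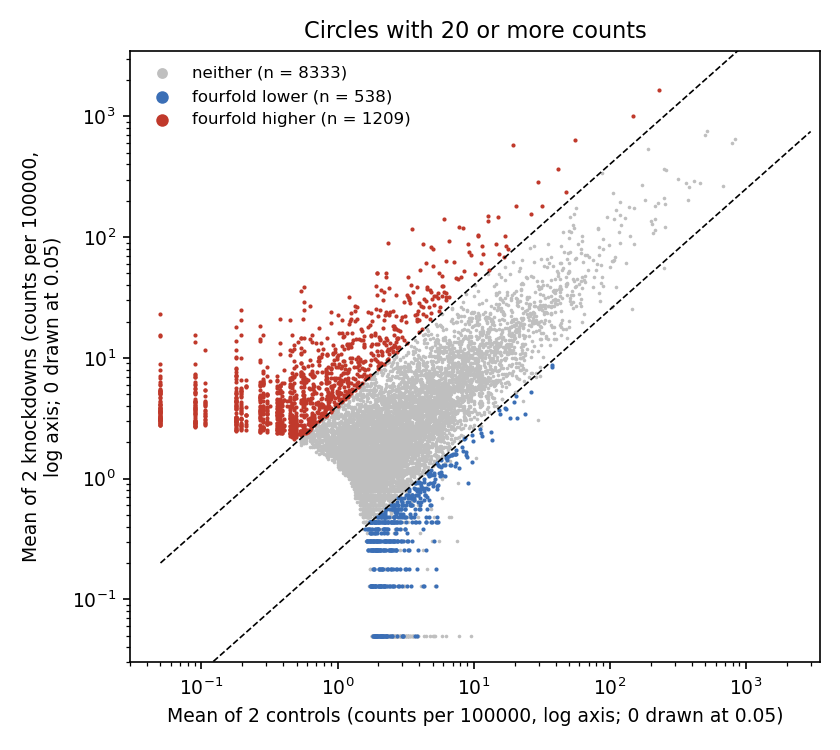
Each point is 1 of the 10080 tested circles, with the mean of the 2 control libraries on the x axis and the mean of the 2 knockdown libraries on the y axis, both in counts per 100000 on log axes. Dashed lines mark a 4-fold difference. The 1209 members (red) reach further from the diagonal at high levels than the 538 circles that were 4-fold lower (blue), and the vertical rows of red points at the left are members with 0 or a few control counts.

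Fold differences ranged widely. With circles at 0 control counts set at their lower bound, the median fold was 8.68 and the quartiles were 5.68 and 14.7. On that scale 655 members were at least 8-fold higher, 264 at least 16-fold and 95 at least 32-fold. The lower knockdown value was at least 4 times the higher control value in 775 members (64.1%), so that for these any choice of 1 library per group gives at least 4-fold. Control replicate 1 alone gave at least 4-fold for 1172 members and control replicate 2 alone for 940. Control replicate 1 was the lower control in 915 members (75.7%), against 67.6% of the other tested circles, and the part of its different content in this was not tested.

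The members' counts were concentrated in a few abundant circles. The 10 highest held 30.2% of the members' summed knockdown level and 55 circles held 50%, while the median member had 39 counts over all 4 libraries, as did the median of the other tested circles. Levels were not scaled by circle length, so they rank circles by counts only. The highest, at chr14:32090502-32094386, is a circle of 1 exon and 3885 nt from ARHGAP5, a GTPase-activating protein. No splice site motif was listed for this circle. It had 70.9 and 389 counts per 100000 in control replicates 1 and 2 and 1800.3 and 1479.7 in the knockdown replicates, a 7.14-fold difference of means. A second ARHGAP5 circle of 2 exons and 4033 nt had 45.7, 249.6, 1102 and 910.3 in the same order, a 6.81-fold difference. Both circles start at the same base, and in both the controls differed by a larger ratio than the knockdown replicates did.

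SENP6 gave 3 of the 10 highest members. The circle with the largest fold among the 10 was 1 exon of 428 nt at chr6:75702645-75703072, with 3.18 and 35.9 per 100000 in the controls and 521 and 647 in the knockdown replicates, 29.9-fold. A circle of 12 exons and 1722 nt, which also overlaps the small nuclear RNA copy RNU6-1016P, had 17.8 and 94.3 against 618 and 661, 11.4-fold. The third, of 7 exons and 1039 nt in the same place, had 13.5 and 45.8 against 278 and 289.6, 9.57-fold. In all 3 the knockdown values were close together and the controls were several-fold apart.

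The other circles of the 10 came from 4 genes. ZNF644, a zinc finger protein, gave a circle of 3 exons and 3705 nt with 14.2 and 69.4 in the controls and 414 and 326 in the knockdown replicates, 8.86-fold. Its circle of 2 exons and 3644 nt had 6.56 and 34.1 against 206 and 158, 8.95-fold. Both were higher in knockdown replicate 1 than in replicate 2, as were the ARHGAP5 circles. RARS1, the arginyl-tRNA synthetase, gave a circle of 4 exons and 534 nt with 28.4 and 66.7 against 228 and 247, 5.00-fold. ANKRD12, an ankyrin repeat protein, overlaps the gene ENSG00000265257 and gave a circle of 6 exons and 925 nt with 14.4 and 48.9 against 173 and 189, 5.73-fold. XPO1 gave a circle of 7 exons and 1085 nt at chr2:61482380-61490776 with 15.9 and 37.4 against 145 and 165, 5.82-fold. In all 10, control replicate 1 was lowest, control replicate 2 next, and both knockdown replicates higher.

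**Figure D2:**
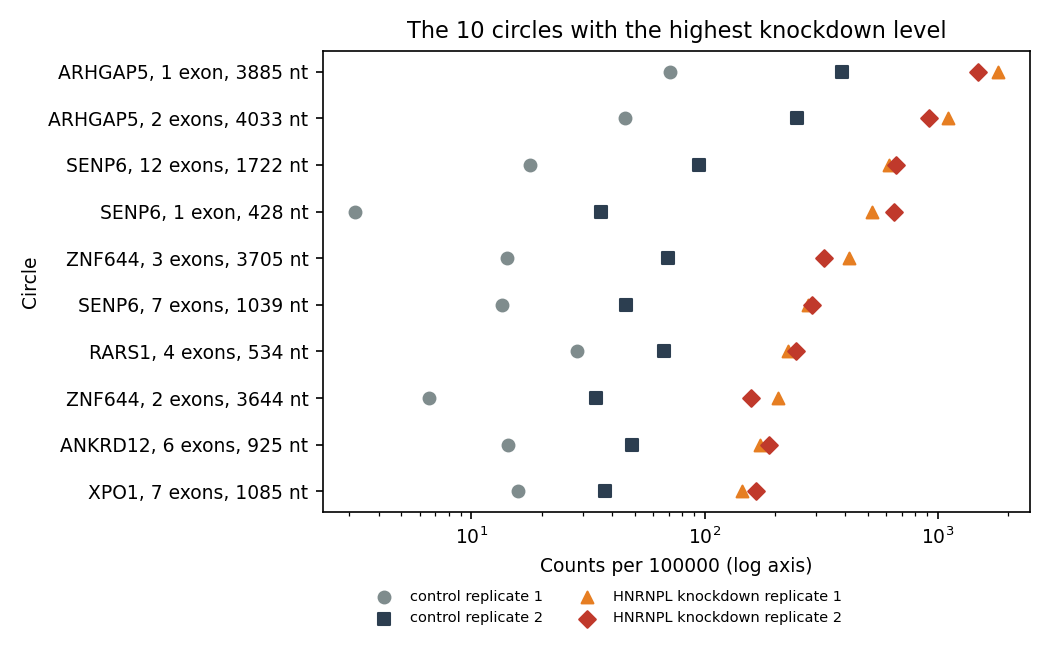
The 10 members with the highest mean knockdown level, 1 per line, with each library as 1 symbol and the level in counts per 100000 on a log axis. Knockdown replicates 1 and 2 lie near each other at the right of every line, and control replicate 1 lies to the left of control replicate 2 on all 10 lines.

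The largest folds belonged to circles that control cells held at a handful of counts. Among members with at least 4 control counts, the median fold was 6.98 and the largest was 68.1. That circle, 677 nt of PICALM, a clathrin assembly protein, had 0.423 and 0.719 per 100000 in the controls and 36.1 and 41.7 in the knockdown replicates, and its 6 control counts leave a pooled ratio of 67.5 (counting interval 30.6 to 186). A 553-nt circle of SPAG16, a protein of the axoneme, had 0 and 1.08 against 32.9 and 38.4, 66.1-fold by means and 61.9 (28.0 to 170.3) pooled. DNAH14 followed with a circle of 16 exons and 2457 nt, at 0.212 and 0.539 against 17 and 25.3, 56.4-fold by means and 56.2 (21.5 to 209) pooled. The intervals of these 3 overlap, so their order is not settled by the counts.

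The other circles of this group were of the same kind. TAF2, a subunit of the general transcription factor TFIID, gave a circle at 50.8-fold, and a further PICALM circle, which shares its end with the first, stood at 45.4-fold. VPS13C, a lipid transfer protein, followed at 43.3-fold, the zinc finger gene ZNF286A, with a read-through gene named beside it, at 42.7-fold and THADA at 37.8-fold. A circle of ESCO1, an acetyltransferase of cohesin, stood at 35.2-fold. A DNAH14 circle of 6 exons and 800 nt rests on more counts, with 0.423 and 4.31 per 100000 in the controls and 78.2 and 100.4 in the knockdown replicates, 37.7-fold by means and 36.0 (24.4 to 55.6) pooled.

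Members without control counts give lower bounds only. A 384-nt circle of PPP6R3, a regulatory subunit of protein phosphatase 6, had 0 counts in both controls and 23.3 and 22.8 per 100000 in the knockdown replicates, at least 39.3-fold higher against the floor of 3 counts per library. A 317-nt circle of TNRC6B, a scaffold of microRNA silencing, had 0 in both controls and 2.12 and 4.86 in the knockdown replicates, at least 5.95-fold higher. A 6-exon circle of VPS13A, a lipid transfer protein, had 2 control counts, 0.212 and 0.180 per 100000, against 16.3 and 14.6, a pooled ratio of 78.7 (21.2 to 659). For such circles the counts set the size of the difference only loosely.

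By structure, members were shorter and more often purely exonic than the other tested circles. Exon circles made up 93.5% (91.9% to 94.8%) of members and 89.1% of the others, and 84.9% of the circles that were 4-fold lower. Intron circles were 61 members (5.05%) and 716 of the others (8.07%). Seen from each class, 12.5% of tested exon circles were members, against 7.85% of intron circles, 9.47% of 95 antisense circles 0 of 19 intergenic circles and 5.70% of 158 circles that the table types as Unknown, all on unplaced or alternate sequences. The difference between exon and intron circles rested on control replicate 1, which held the most intron circles: without it, 12.2% of exon circles and 11.5% of intron circles passed.

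The median member was 1035 nt long (95% order-statistic interval 978 to 1070), and the median of the other tested circles was 1212 nt (1192 to 1231). Circles that were 4-fold lower had a median of 1028 nt, so a shorter length was common to both directions. Members spanned 15573 nt of genome (14456 to 16461) against 19349 nt for the others. In exon circles the median was 6 exons for members and 7 for the others, with 149 and 151 nt per exon. The 4-fold lower circles also had a median of 6 exons, and so did the other tested circles among those with 80 or more counts, with a limit of 40 counts, or without control replicate 2, so that the difference of 1 exon did not hold there. Within bands of equal counts the length difference remained, at 1038.5 against 1194.5 nt for 20 to 39 total counts and 1036.5 against 1252 nt for 80 or more.

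The share of members was highest in short circles. It was 16.5% for circles under 500 nt, 14.5%, 10.9% and 9.46% in the next 3 length classes and 10.8% for those of 3000 nt or more. The share of 4-fold lower circles also went down with length, from 7.13% to 1.93% between the same end classes. Circles of 1 exon passed in 14.3% of cases and circles of 12 or more exons in 9.63%. The share did not move with abundance, at 11.8% for 20 to 39 counts, 12% for 40 to 79 and 12.3% for 80 or more, whereas the share of 4-fold lower circles went from 7.44% to 4.59% and 1.63%.

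**Figure D3:**
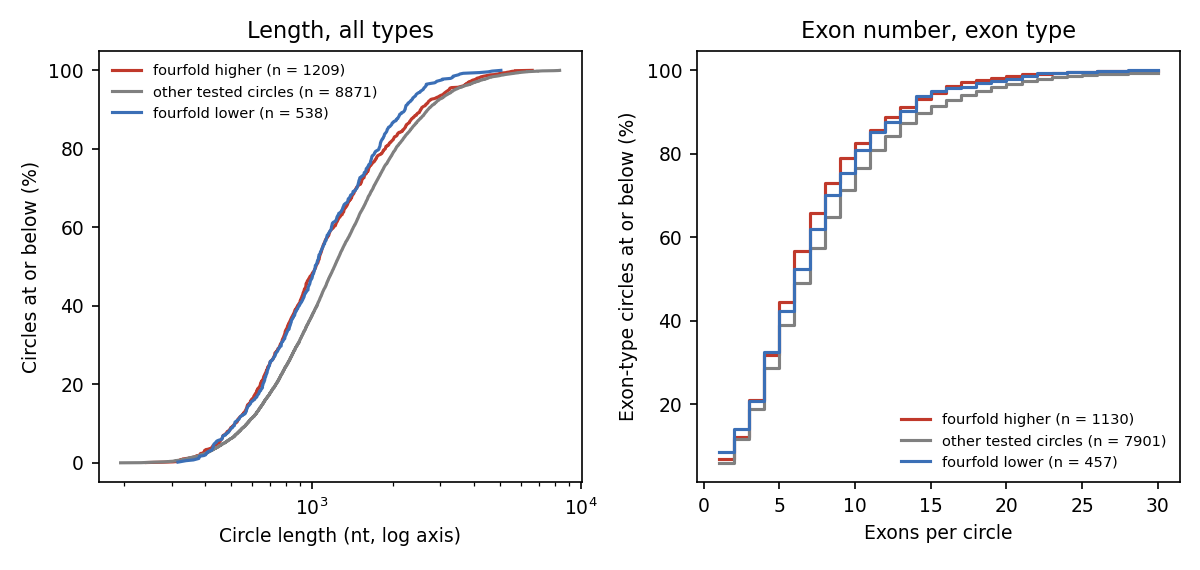
Cumulative share of circles (y axis, percent) by length in nt on a log axis for all types (left) and by number of exons for exon circles (right). Members are red, the other tested circles grey and the 4-fold lower circles blue. At a given length the red line lies above the grey one up to about 3000 nt, with medians of 1035 and 1212 nt, and the blue line follows the red one at shorter lengths.

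The splice site annotation differed as well. The caller marks the splice site of some circles with an asterisk, for which the table gives no key, and 12.7% of members and 22.8% of the other tested circles had this mark. Of marked circles 7.07% were members and of unmarked circles 13.4%. Without control replicate 1 the shares were 9.78% and 12.7%, so that part of this gap rested on that library. Circles that overlapped several genes passed in 7.43% of cases (8.54% without control replicate 1) and circles of 1 gene in 13.1% (13.0%). Long non-coding genes hosted 11 members, 8.73% of their 126 tested circles, and protein-coding genes passed in 13.2%. More than 1 isoform was listed for 44.7% of members and 42.7% of the others, which is nearly equal.

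Members of types other than exon were few and mostly of low level. The highest intron circle lay in the non-coding gene ENSG00000286480 at chr2:63196122-63201291, with 5.72 and 30.4 per 100000 in the controls and 73.6 and 85.5 in the knockdown replicates, 4.41-fold. An intron circle of LYPLAL1, a lysophospholipase-like protein, had 1.27 and 1.44 against 24.8 and 29.4, 20-fold, with the 2 controls close together. Antisense to SLC38A2, an amino acid transporter, a circle of 631 nt had 1 control count, with 0.212 and 0 against 5.31 and 7.17, a pooled ratio of 65.7 (11.2 to 2655). The antisense circle of YWHAZ, a 14-3-3 protein, also had 1 control count, and its values were 0 and 0.180 against 4.24 and 10.5. Of the 9 members of type Unknown, which name no gene, the highest, of 1631 nt, had 0.212 and 3.23 against 16.3 and 21.3, 10.9-fold. The next, of 603 nt, had 0 and 0.898 against 11.3 and 12, 26-fold by means, with 5 control counts.

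Members were spread unevenly over host genes. Of the members, 1065 named 1 host gene, 126 named several, 9 were antisense to 1 gene and 9 named none. Those 1065 were 13.1% of the 8120 tested circles with 1 host. They came from 512 of the 2335 hosts (21.9%): 322 hosts had 1 member, 190 had 2 or more and 43 had 5 or more. Of these members, 743 (69.8%) had another member in the same host, a share for which no like value of the other circles was computed. Hosts with more tested circles had more chances: 10.6% of hosts with 1 tested circle had a member, and 57.7% of hosts with 10 or more. Hosts with a member had a median of 4 tested circles and hosts without a member 2.

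DNAH14 hosted 39 members among its 79 tested circles, the highest number, and 1 other was 4-fold lower. Together the members had 30.5 and 76.7 counts per 100000 in control replicates 1 and 2 and 712 and 863 in the knockdown replicates. All other DNAH14 circles, low counts included, had 136 and 189 against 233 and 283. Its highest member, 863 nt of 7 exons at chr1:224952670-224974153, had 1.06 and 11.1 against 128 and 157, 23.3-fold. At its shared start, 9 of 11 tested circles were members, and 10 of 10 and 7 of 7 circles passed at a pair of shared ends.

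XPO1 hosted 38 members among 46 tested circles, with summed values of 62.4 and 165 in the controls and 696 and 791 in the knockdown replicates. SENP6 hosted 15 among 22 that named SENP6 alone, with 21.2 and 129.5 against 1093 and 1229. At 1 shared end of SENP6 and RNU6-1016P, 11 of 12 tested circles were members. Of the tested circles that did not pass, 1 of SENP6 was 4-fold lower and 0 of XPO1 were.

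LARP4, which encodes a poly(A)-tail binding protein, hosted 11 members among 12 tested circles, with 10.2 and 31.3 against 184 and 185. Its highest circle, 786 nt of 7 exons, had 2.96 and 11.5 against 64.7 and 59.7, 8.60-fold. VPS13A hosted 11 among 15, with the lowest sums of the 5, 2.33 and 2.87 against 54.5 and 57.1. These 5 hosts held 114 of the members with 1 host (10.7%), so most members lay elsewhere.

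In some hosts every tested circle was a member. This held for 7 hosts with 5 or more tested circles, among them PPP4R3B, a subunit of protein phosphatase 4, and SMCHD1, a factor of X inactivation, with 8 each, SNX13 and VPS50 with 7 each, and ARHGAP5 and the centrosome protein CEP70 with 6 each. Other hosts had members beside many circles that did not pass. ATM, the kinase that signals DNA double-strand breaks, had 10 members among 32 tested circles. Its members summed to 2.33 and 8.98 against 42.1 and 37.4, while its other circles summed to 113 and 312 against 317 and 250, with the groups overlapping. Members and circles that were 4-fold lower shared a host in 41 of the 512 member hosts (8.01%), while 14.3% of all hosts had a 4-fold lower circle.

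**Figure D4:**
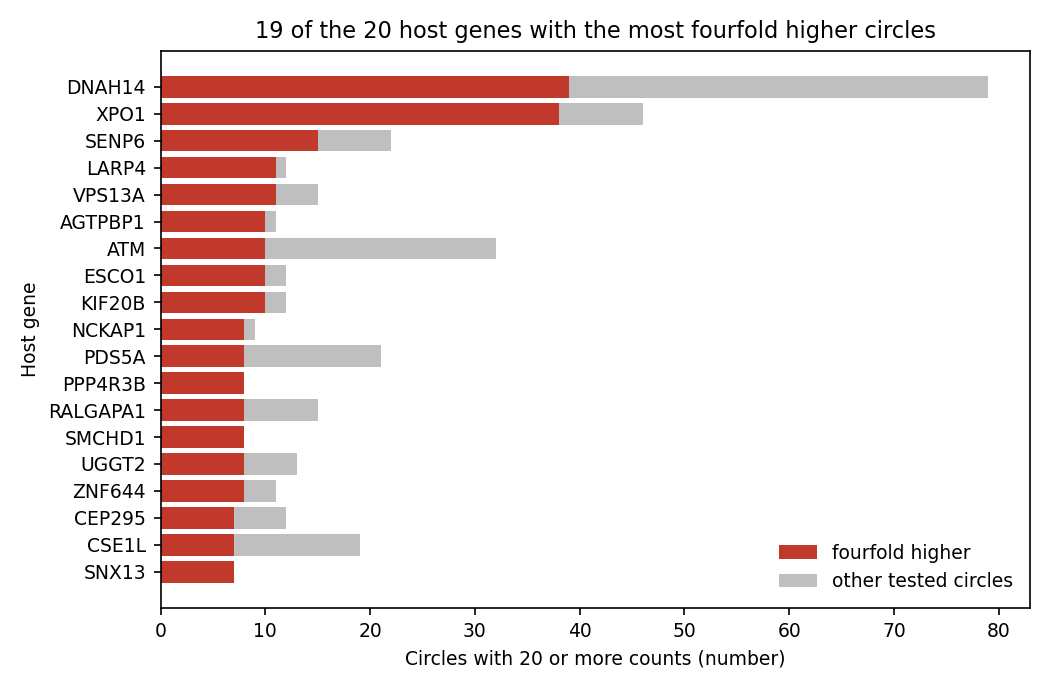
Number of tested circles (x axis) in 19 of the 20 host genes with the most members, counting circles that name 1 gene. Red bars are members and grey bars the other tested circles. DNAH14 and ATM have many grey circles, and PPP4R3B, SMCHD1 and SNX13 have none.

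The member hosts also gave tested circles that did not pass. The 2096 other tested circles of these hosts had a median log2 difference of 0.19, and 579 of them (27.6%) were higher without overlap, against 27.3% of all tested circles, members included. The 4959 tested circles of hosts without a member had a median of -0.43, and 662 (13.3%) were higher without overlap. Since a host enters the first group through a high circle, and removing that circle leaves the others of the same gene, these values describe the hosts and support no call.

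Circles with fewer than 20 counts were not reached by the rule, although they share the contrast. In member hosts the 27141 low-count circles summed to 5701 and 5830 per 100000 in the controls and 7569 and 7779 in the knockdown replicates. The group means were 5766 ± 91.3 and 7674 ± 149 (SD, n = 2 each), a ratio of 1.33, and the groups did not overlap. In hosts with tested circles but no member the sums were 16744 and 12460 against 10207 and 10040, a ratio of 0.693. In hosts with no tested circle the ratio was 0.632. Among hosts with at least 20 low-count circle counts, 222 of 493 member hosts (45.0%) had higher sums without overlap. Of the other hosts with tested circles, 134 of 1663 (8.06%) did. Member hosts were chosen by circles of the same genes in the same 4 libraries, so these values too describe the hosts and support no call.

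Members often shared a back-splice end with each other. Of the members, 957 (79.2%) shared a start or end with another tested circle, as did 75.6% of the other tested circles. Another member was the partner for 675 members (55.8%), and 1091 of the other circles (12.3%) shared an end with a member. Members that shared an end with a circle that did not pass numbered 699 (57.8%), so that a common end did not fix the outcome. All 7 tested circles at 1 end in SNX14, a sorting nexin, were members.

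Within the host gene, members ended earlier. In exon circles of hosts found in the gene table, the median member ended at 61.3% of the gene length from its start, and the median other tested circle at 67.3%. Their starts were alike at 36.4% and 36.8%. Members covered 15.2% of the gene and the others 20%. The 4-fold lower circles ended at 70.8%, further from the members than the other circles were, and covered 21.7% of the gene. Circles ending in the last 10% of the gene were 12.2% of members and 16.3% of the others. Host genes of members were a little longer than those of the others, with medians per circle of 103239 and 98736 nt. Those of the 4-fold lower circles were shorter, at 76897 nt, and the part of gene length in these percentages was not tested.

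Among chromosomes with at least 50 tested circles, the share of members was lowest on 16, where 6 of 229 tested circles passed (2.62%, interval 0.967% to 5.62%). On 19 it was 3.95% (3 of 76, 0.822% to 11.1%) and on 22 it was 4.94% (4 of 81, 1.36% to 12.2%). The interval on 22 included the 12% of all tested circles. On 3 the share was 7.66% (48 of 627, 5.70% to 10.0%). The highest shares were 16.9% on 13 and 16.7% on 6, the chromosome of SENP6. Circles of 1 gene pass together, so these intervals understate the spread.

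Host genes were then grouped in 10 lists by function, which were drawn up with earlier results of these data in view. Beside each list stands the share of 13.1% members and the median log2 difference of -0.08 over all tested circles with 1 host, of which 5.20% were 4-fold lower. In membrane traffic, 22 of 38 hosts had a member and 60 of 192 circles passed (31.2%), with a median log2 difference of 0.63, and 1 circle (0.521%) was 4-fold lower. All 7 tested circles of SNX13, a sorting nexin, and all 7 of VPS50, a subunit of a tethering complex of recycling endosomes, were members. The highest VPS50 circle had 0.423 and 4.31 against 25.5 and 21, 9.81-fold. Without VPS13A the share was 27.7%.

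Genes of chromosome segregation passed in like numbers. In the list of mitosis, kinetochore and cohesin genes, 16 of 30 hosts had a member and 51 of 172 circles passed (29.7%), with a median of 0.69 and 1 circle (0.581%) 4-fold lower. Without control replicate 1 the share was 24.3%. PDS5A, which regulates the release of cohesin, gave 8 members of 21, and its highest circle had 1.91 and 6.65 against 80.6 and 96.5, 20.7-fold. A circle of STAG1, a cohesin subunit, had 6.14 and 28.7 against 90.5 and 78.9, 4.86-fold. ESCO1 gave 10 of 12, and its highest, of 7 exons and 2777 nt, had 2.12 and 5.93 against 48.1 and 58.9, 13.3-fold.

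In centrosome and cilium genes, 14 of 25 hosts had a member and 36 of 171 circles passed (21.1%), with a median of 0.31. Without control replicate 1 the share was 16.7%. CEP295, a centriole protein, gave 7 of 12, and its highest circle had 6.35 and 16.3 against 69.7 and 53.3, 5.42-fold. A circle of KIFAP3, which links kinesin-2 motors to cargo, had 0.635 and 3.23 against 49.5 and 51.5, 26.1-fold. The controls were low in both, and the CEP295 controls came closer to the knockdown values.

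In DNA damage response genes, 13 of 28 hosts had a member and 43 of 210 circles passed (20.5%), with a median of 0.42 and 2 circles (0.952%) 4-fold lower. Without control replicate 1 the share was 16.9%. FANCB, a subunit of the Fanconi anaemia core complex, gave 6 of 10. Its circle of 8 exons and 2557 nt had 4.23 and 5.57 against 78.5 and 86.5, 16.8-fold, with little spread within either group. Its circle of 7 exons that shares 1 end had 5.72 and 12.9 against 72.2 and 78.6, 8.08-fold. USP1, a deubiquitinase of that pathway, gave 6 of 8, REV3L, the catalytic subunit of translesion polymerase zeta, 4 of 5, and BRCA2, a mediator of homologous recombination, 2 of 5.

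Nuclear pore and transport genes passed at 30.0% (69 of 230), and 38 of the 69 came from XPO1. Without XPO1 the share was 16.8% (31 of 184), and the median over the whole list was 0.35. SENP6 was placed in this list and gave 15 of those 31 members from 22 tested circles, so the share without XPO1 rested largely on SENP6. CSE1L, the exporter of importin alpha, gave 7 of 19, and IPO7, an import receptor, 4 of 7. The hosts of widely studied circular RNAs passed at 50.5% (51 of 101), and again XPO1 gave 38, leaving 23.6% (13 of 55) without it. Of those 13 members, 6 came from ARHGAP5, all 6 of whose tested circles passed. Without control replicate 1, and with XPO1, the share was 40.4%.

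The remaining lists lay near or below the background. Chromatin regulators passed at 14% (30 of 215). Among them a circle of TASOR, a subunit of the HUSH silencing complex, had 1.48 and 14 against 121 and 122, 15.6-fold. TASOR gave 5 members of 29 tested circles, and 2 others were 4-fold lower. A circle of ATRX, a chromatin remodeller, had 1.91 and 2.52 against 32.2 and 38.7, 16-fold. ATRX gave 5 members of 7, and 1 other was 4-fold lower. Kinases and phosphatases passed at 12.3% (31 of 253). PTPN12, a tyrosine phosphatase, gave 4 of 27, of which the highest had 0.847 and 2.16 against 14.1 and 19.2, 11.1-fold. In PPP4R3A, a regulatory subunit of protein phosphatase 4, the highest had 1.27 and 6.65 against 15.6 and 17.4, 4.16-fold.

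Genes of the ubiquitin system passed at 10.7% (33 of 309), and 16 of their circles (5.18%) were 4-fold lower, as were 5.20% of all circles with 1 host. A 1-exon circle of USP25, a deubiquitinase, had 4.45 and 17.2 against 100.4 and 103, 9.38-fold, and was the 1 member among 24 tested circles. A circle of USP14, a deubiquitinase of the proteasome, had 4.45 and 8.09 against 61.2 and 65.8, 10.1-fold. USP14 gave 4 members of 19 tested circles, and 2 others were 4-fold lower. Its circles that were not members summed to 80.9 and 66.7 in the controls against 38.9 and 43.0, the opposite direction. In CUL5, a cullin scaffold of ubiquitin ligases, all 4 tested circles passed, and the highest had 1.06 and 3.23 against 27.2 and 33.0, 14-fold. The knockdown values of these 3 member circles were close together. The list as a whole lay near the background, whose 13.1% falls within its interval of 7.47% to 14.7%, and its median log2 difference was 0.01.

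RNA processing genes had the lowest share, 5 of 133 circles (3.76%) in 5 of 42 hosts, with a median of -0.32 and 11 circles (8.27%) 4-fold lower. Their members were scarce in controls. A 1-exon circle of MBNL2, a splicing regulator, had 2 control counts, with 0.212 and 0.180 against 5.31 and 5.38, a pooled ratio of 27.5 (7.08 to 236). A circle of UPF2, a factor of nonsense-mediated decay, had 3, with 0 and 0.539 against 4.24 and 4.35, a pooled ratio of 14.8 (4.58 to 75.8). Without control replicate 1 the share of this list was 7.22%, still below the 13.0% of all single-host circles.

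**Figure D5:**
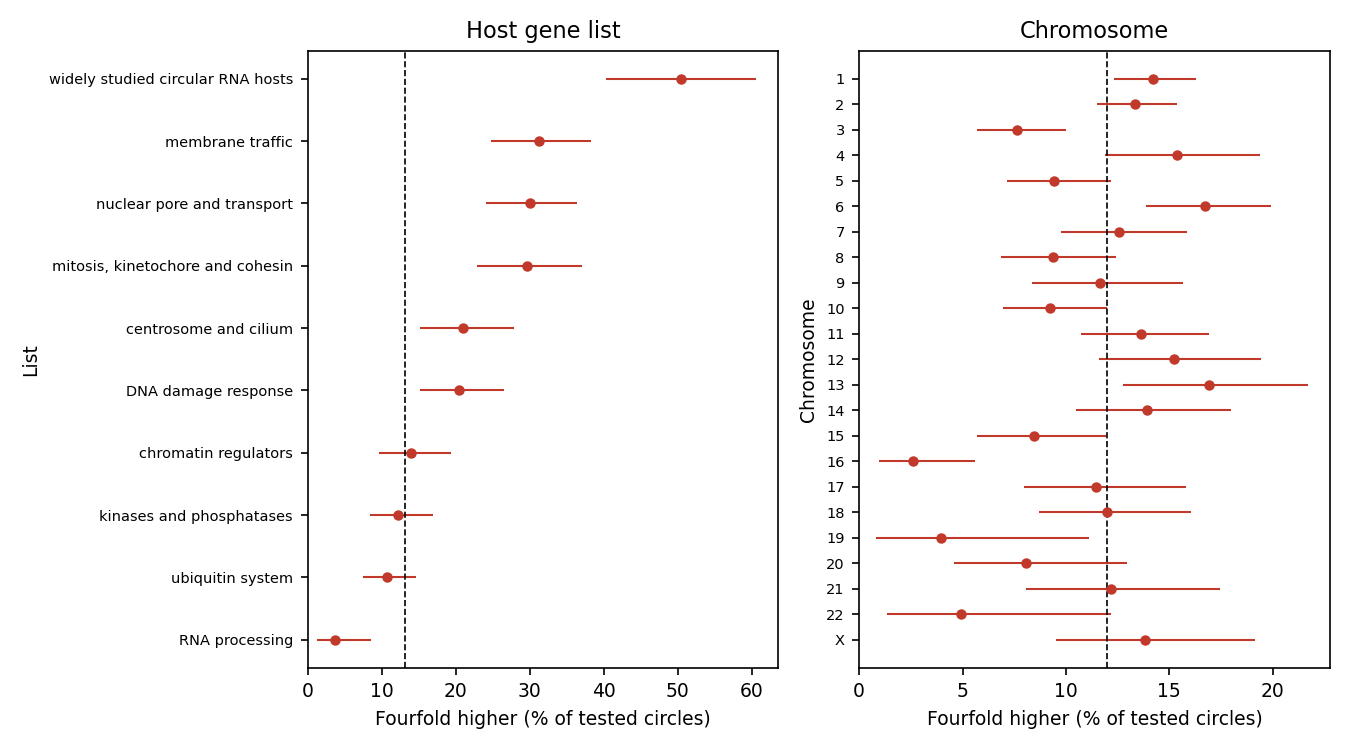
Percent of tested circles that were members, by list of host genes (left) and by chromosome (right), with 95% Clopper-Pearson intervals as bars and the background as a dashed line, 13.1% for circles with 1 host and 12% for all. Widely studied circular RNA hosts stand highest at 50.5%, with 38 of their 51 members from XPO1, and RNA processing lowest at 3.76%. Chromosome 16 stands lowest of those drawn at 2.62%.

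At the edge of the rule the values ran without a gap. Among circles with at least 100 counts, the members nearest to the 4-fold limit came from PRMT9 (4.03-fold), ZNF644 (4.07-fold) and ENSG00000286480 (4.13-fold). The nearest circles below it came from ATAD5 (3.93-fold), CENPJ (3.89-fold) and MGA (3.88-fold). The MGA circle had 4.23 and 21.2 against 48.5 and 50.2, a separation like that of many members. At the count limit, 61 of 494 circles with 20 counts passed, and 57 of 572 circles with 19 counts met the other conditions.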

How the data were processed

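Circular RNA was read on nanopores after reverse transcription with Induro and phi29 amplification of total RNA, per the labels' protocols. The authors deposited raw counts per back-splice position for 4 libraries (CIRI-long, per the file's columns), and no normalization had been applied to these deposited counts. GRCh38.p14 and DESeq2 are named in the submitters' processing notes, and the caller's version and the aligner were not given in the sources used here. The deposited scaled values were not used.

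From the counts, levels per 100000 of each library total were computed (Python 3.11.15, pandas 2.3.3, scipy 1.17.1). Groups came from the sample titles. The members and lists were chosen with earlier results of these data known. Because the rule uses the contrast between groups, no p-value was computed, and no fit across circles was made. Shares have Clopper-Pearson and medians order-statistic 95% intervals, which treat circles as independent. A host is the 1 gene named for a circle that is not antisense. Position in a gene and promoters come from RefSeq tables of GRCh38.p14. Exons were counted in the first isoform listed for a circle. The selection script recovered circles planted in simulated counts. These were well counted, changed by more than the fold limit and had counting noise only. The simulation therefore checks the script, and not how the rule behaves at low counts or with replicates that differ.

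Named circles were the 10 members with the highest knockdown mean, the 10 with the largest fold among those with at least 4 control counts, 2 of each type other than exon, the 3 nearest to the fold limit on either side among those with at least 100 counts, up to 3 per list, and the 5 hosts with most members. Circles of hosts whose tested circles were all members, of ATM and of shared ends, and hosts given in the lists by counts alone, were chosen after their values were seen. Alternatives were other count and fold limits, scaling by edgeR's TMM factors (4.0.16) or DESeq2 size factors (1.42.0), other totals, each library left out, and the fold required within same-numbered pairs. CA repeats beside the back splices were not analysed here. The values of 1 host gene with members are not reported here.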

Additional observations from a re-analysis of the deposited data

How the results depend on the processing

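The number of members moved from 1209 to 2540 with at least 10 counts and 601 with at least 40. These were 11.8% of 21576 and 12.2% of 4944 tested circles, against 12% as reported, so the share hardly moved. A fold of 2 gave 2087 (20.7% of 10080) and a fold of 8 gave 703 (6.97%), where circles with 0 control counts pass any fold. The exon share, 93.5% as reported, was 88.5% with at least 10 counts, 95.2% with at least 40, and 91.8% and 97.3% within 20 to 39 and 80 or more counts. The median length was 1127 nt at a fold of 2 and 960 nt at a fold of 8, and the span 17147 and 13560 nt. The share of members with another member in the host was 75.8% with at least 10 counts and at a fold of 2, and 63.9% at a fold of 8.

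Each library was left out in turn, and circles with 20 counts over the other 3 were then tested. This gave between 620 members without knockdown replicate 2 and 1628 without control replicate 2. These were 7.89% of 7860 and 24.6% of 6607 tested circles, against 12% with all 4 libraries. Without control replicate 1 the share was 12.2%, and without knockdown replicate 1 it was 9.77%. The exon share ranged from 91.9% to 95.8%, the length from 991.5 to 1081.5 nt, the span from 14760.5 to 16221 nt and the host share from 65.6% to 76.5%. The count without knockdown replicate 2 is lower partly by construction, since its counts no longer lift circles to 20.

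Same-numbered libraries did not deviate together (correlation 0.02 over tested circles, with a pseudocount of 1), so the numbers were taken as names. Requiring a 4-fold difference within both same-numbered pairs as a replicate block left 893 circles with a median length of 975 nt. With TMM and DESeq2 scaling 1276 and 1275 circles passed, of which 1203 and 1201 were members, and the members' median of 6 exons was the same under every alternative run. The other circles' median was 7, but also 6 with at least 40 counts, within 80 or more counts and without control replicate 2. Depth limits circles with 0 to 3 control counts to bounds or wide intervals.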

Other observations

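Outside the named genes, no hairpin of a microRNA lay in the exons of a member, and 1 lay in those of another tested circle. Of the members, 98.3% were annotated with the AG-GT splice motif, against 97.2% of the other tested circles. Mitochondrial circles gave 0 members among 11 tested circles.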
